A study of Mus musculus with 12 samples.

Results

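The 10 immediate early genes described here were *Fos*, *Fosb*, *Jun*, *Junb*, *Egr1*, *Atf3*, *Ier2*, *Ier3*, *Ier5* and *Zfp36*, chosen by name with earlier results of these data known. Each was measured by 1 probeset, a group of short probes summarised as 1 value, out of 35557 probesets and 19938 named genes on an Affymetrix mouse gene array. Total RNA from 12 mouse hearts was hybridised, 1 array per heart, and all mice were labelled as 8 weeks old with no stress or injury named. The 2 cre hearts carried a cre transgene with wild-type *Gata4* and *Gata6*, the 2 *Gata4* floxed and 2 *Gata6* floxed hearts carried floxed alleles without cre, and the 3 *Gata4*-deleted and 3 *Gata6*-deleted hearts carried floxed alleles together with cre. The transgene was thus common to the cre hearts and to both deleted groups. The labels describe cre as driven by MHCalpha, whereas the study's methods name the βMHC promoter. Either promoter is active in cardiomyocytes, so other cells of the heart kept both genes, and whole-heart RNA held the RNA of all of them. In such bulk samples fewer cells of a type and less RNA per cell cannot be told apart.

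Immediate early genes are transcribed within minutes of a stimulus from factors that are already present in the cell, such as SRF with its ternary complex partners and CREB, and most of their mRNAs are short-lived. In the heart they respond to stretch, adrenergic and endothelin signals, ischaemia and the handling of tissue, and *Fos*, *Jun* and *Egr1* are classic early markers of pressure overload. GATA-4 and GATA-6 are zinc finger factors that bind GATA motifs and drive much of the cardiac gene program. The comparison asked here was whether any immediate early gene moved with loss of either factor against every kind of control, or moved only from heart to heart.

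All arrays had similar medians, between 5.61 and 5.66, and correlated at 0.979 to 0.991. The mean signal of 8 cardiomyocyte markers was 12.90 to 13.01 in every heart, as the heart label requires, while 6 neutrophil markers lay at 3.97 to 4.20. The *Gata4* probeset was not lower in the hearts labelled as *Gata4*-deleted (9.15 to 9.24, controls 8.97 to 9.26), nor the *Gata6* probeset in those labelled as *Gata6*-deleted (8.98 to 9.21, controls 8.69 to 9.09). Where these probes lie relative to the floxed exons is not given in the sources used here, so deletion is taken from the labels and was not checked by these signals, and every direction below rests on those labels. The 2 *Gata4* floxed hearts stood apart from the other 10 in clock genes: the repressor *Per1* of the circadian clock was at 6.71 and 6.86 there and 7.74 to 8.35 elsewhere, and *Arntl*, an activator of the clock, 6.34 and 6.45 there and 4.98 to 5.69 elsewhere. Hour of harvest is not labelled. Calls against all controls that were lost without those 2 hearts are given both ways.

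Mean log2 signals of the 10 genes ranged from 5.57 for *Fosb* to 8.04 for *Jun*, and 48.9% to 83.6% of probesets were dimmer. The median over all probesets was 5.63, and *Fosb* and *Fos* lay near that level. No detection call was used here. Signals of different genes were not compared, because probes differ in their response.

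*Ier5* alone among the 10 genes was higher in all 6 deleted hearts than in all 6 control hearts and also passed the test. It encodes a nuclear protein that, in human cells, brings the phosphatase PP2A to the heat shock factor HSF1. Its signal was 7.54, 7.58 and 7.40 in the *Gata4*-deleted hearts and 7.69, 7.64 and 7.63 in the *Gata6*-deleted hearts. It was 6.95 and 6.68 in the cre hearts, 6.82 and 6.66 in the *Gata4* floxed hearts, and 7.18 and 7.17 in the *Gata6* floxed hearts. The lowest deleted heart therefore lay above the highest control heart, and the *Gata6* floxed pair was the closest of the controls. Against the mean of the 3 control groups, *Ier5* was 1.59-fold higher in deleted hearts (log2 difference 0.67, SE 0.06, n = 6 against 6, limma adjusted p = 0.00846). It was 1.51-fold higher with *Gata4* deletion (0.60, SE 0.08, n = 3 against 6, limma adjusted p = 0.0102) and 1.68-fold higher with *Gata6* deletion (0.74, SE 0.08, n = 3 against 6, limma adjusted p = 0.00663). All p-values are two-sided and were adjusted by Benjamini-Hochberg over all probesets, with a threshold of 0.05.

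**Figure D1:**
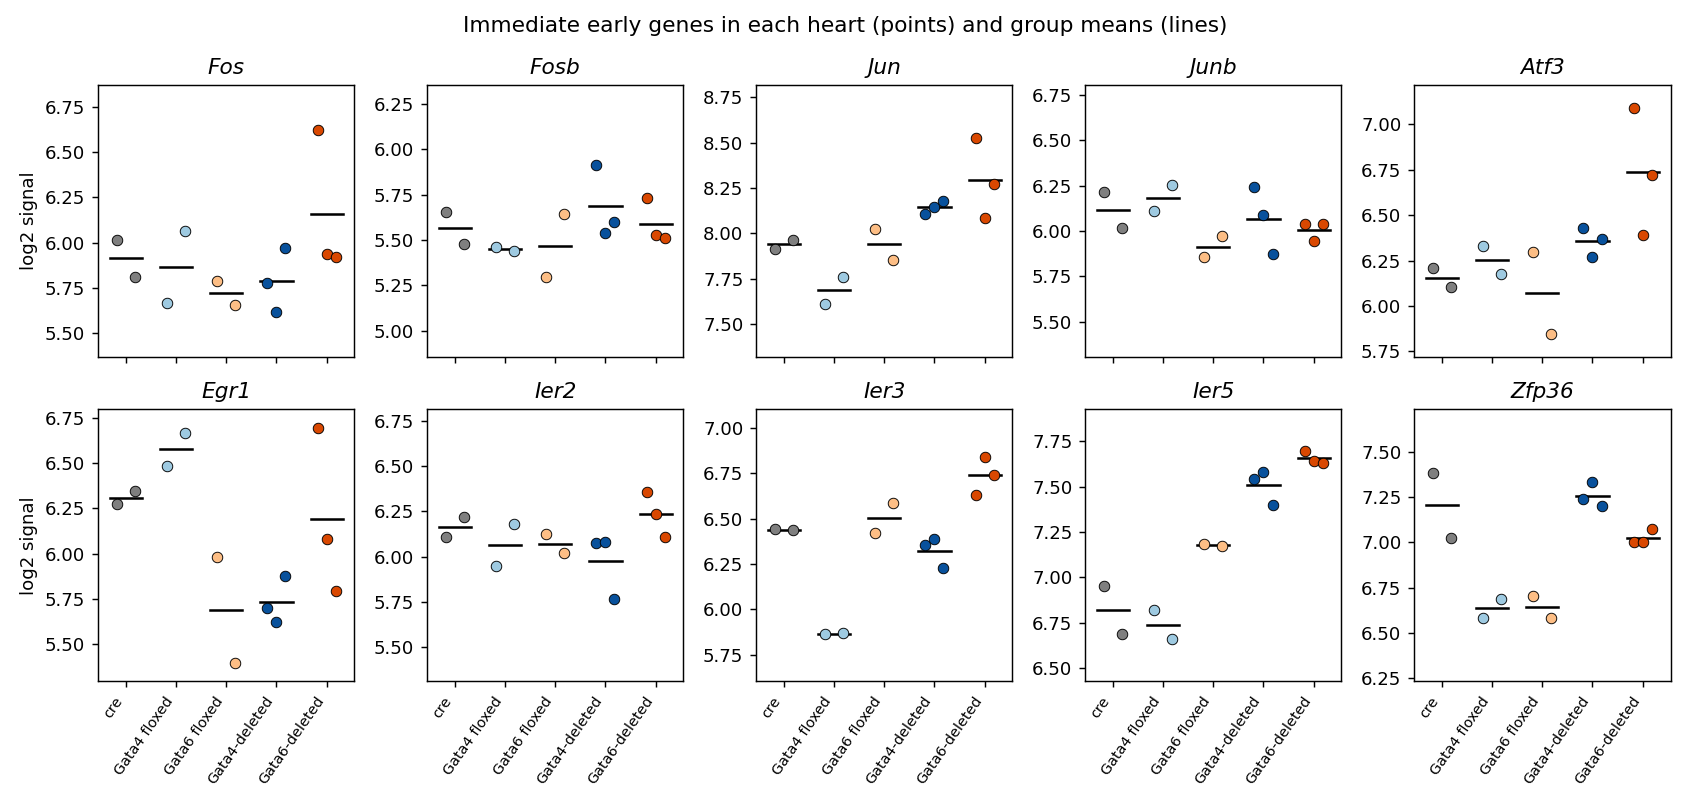
log2 signal (vertical axis) of each of the 10 genes in every heart, by genotype group (horizontal axis), with a point per heart and a line at each group mean. Each panel has its own range. *Ier5* and *Jun* are the 2 genes in which all 6 deleted hearts lie above all 6 control hearts, *Zfp36* is lowest in the 4 floxed hearts, and *Fos*, *Atf3* and *Egr1* scatter within groups.

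Of the 10 genes, 1 thus passed against all controls for either deletion, where 0.352% of all probesets passed, 0.141% as higher and 0.211% as lower. For *Gata4* deletion 1 of 10 passed (background 0.83%, of which 0.374% higher and 0.456% lower), and for *Gata6* deletion 2 of 10 passed, *Ier5* and *Ier3* (background 0.399%, of which 0.264% higher and 0.135% lower). A gene was said to follow deletion where it passed against the mean of all controls, had the same sign against each control group and did not overlap with any control heart. The condition on sign always holds where there is no overlap, so it adds no separate requirement. *Ier5* met this for either deletion, as did 0.157% of all probesets, and for *Gata4* deletion alone, as did 0.709%. *Ier5* and *Ier3* met it for *Gata6* deletion, as did 0.315%. Because the 10 genes were chosen with earlier results of these data known, these counts beside the shares do not measure enrichment.

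The 3 control groups were not equal references for *Ier5*. *Gata4*-deleted hearts exceeded the *Gata4* floxed hearts by 0.77 (SE 0.10, n = 3 against 2, limma adjusted p = 0.0198) and the cre hearts by 0.69 (SE 0.10, n = 3 against 2, limma adjusted p = 0.0248). *Gata6*-deleted hearts exceeded the cre hearts by 0.84 (SE 0.10, n = 3 against 2, limma adjusted p = 0.00761) but the *Gata6* floxed hearts by 0.48 (SE 0.10, n = 3 against 2, limma adjusted p = 0.519). *Ier5* was the 1 gene of the 10 to pass in each of the first 3 of these comparisons, where 0.183% (0.104% higher, 0.0787% lower), 0.391% (0.143% higher, 0.247% lower) and 0.515% (0.307% higher, 0.208% lower) of all probesets passed. In the last, against the *Gata6* floxed hearts, no probeset of the array passed, so 0 of the 10 genes were called by limma, and 5 of them (*Jun*, *Atf3*, *Ier3*, *Ier5* and *Zfp36*) had an unadjusted p under 0.05, as did 4.91% of all probesets. That 0 over the array became 62 probesets when *Gata6* floxed heart 1 was dropped and 55 when *Gata6*-deleted heart 1 was, while *Ier5* failed in every fit without 1 heart (adjusted p of 0.323 or more). *Gata4* floxed hearts read 0.44 below *Gata6* floxed hearts (SE 0.11, n = 2 each, limma adjusted p = 0.178). Neither the direct difference between both deleted groups (-0.15, SE 0.09, n = 3 each, limma adjusted p = 0.580) nor the difference between both changes from the own floxed line (0.29, SE 0.14, limma adjusted p = 0.826) passed.

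The call of *Ier5* for either deletion held when any 1 heart was left out, with adjusted p of 0.00460 to 0.0363, and without the *Gata4* floxed hearts the log2 difference was 0.58 (limma adjusted p = 0.0493). For *Gata4* deletion it was lost without *Gata4*-deleted heart 1 (adjusted p = 0.0649) or heart 2 (adjusted p = 0.0501), with differences of 0.58 and 0.56. Against the *Gata4* floxed hearts alone it was lost without *Gata4* floxed heart 1 or 2 (adjusted p = 0.101 and 0.165) and without *Gata4*-deleted heart 1 or 2 (adjusted p = 0.0865 and 0.0815). Against the cre hearts alone it was lost without either cre heart (adjusted p = 0.0695 and 0.153) or any of the 3 *Gata4*-deleted hearts (adjusted p = 0.0953, 0.0686 and 0.0644). Leave-one-out differences of *Ier5* from all controls lay between 0.55 and 0.79 for the separate deletions, so its direction was the same throughout.

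The 250 bases upstream of the *Ier5* start site are shown because GATA motifs are the letters that GATA-4 and GATA-6 bind (chr1:155099637-155099886, minus strand, GRCm38.p6, from RefSeq). Capitals mark a GATA motif, searched on both strands as AGATAA or AGATAG and with T in place of the opening A.
Ier5: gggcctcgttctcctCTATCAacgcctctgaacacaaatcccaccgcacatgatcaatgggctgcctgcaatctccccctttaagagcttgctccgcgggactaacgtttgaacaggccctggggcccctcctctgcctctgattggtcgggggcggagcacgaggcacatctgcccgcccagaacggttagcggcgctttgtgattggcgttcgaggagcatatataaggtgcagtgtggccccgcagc
The match lay 235 bases before the start and read TGATAG on the opposite strand. Such a motif was present in 29.8% of the 32851 windows of 300 bases (250 before and 50 after each start) in the RefSeq set, and 4 of the 8 genes with a window here (*Ier5*, *Jun*, *Atf3* and *Zfp36*) held it. These matches are letters only, and binding was not measured.

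*Jun*, a basic leucine zipper subunit of the AP-1 factor, was the other gene with no overlap between deleted and control hearts. Its signal was 8.11, 8.14 and 8.18 in *Gata4*-deleted and 8.52, 8.08 and 8.27 in *Gata6*-deleted hearts. Control hearts read 7.92 and 7.96 (cre), 7.61 and 7.76 (*Gata4* floxed) and 8.02 and 7.85 (*Gata6* floxed). The gap between the lowest deleted heart, at 8.08, and the highest control heart, at 8.02, was small beside the range within either set. *Jun* was 0.36 higher with either deletion (SE 0.08, n = 6 against 6, limma adjusted p = 0.108), 0.29 with *Gata4* deletion (SE 0.09, limma adjusted p = 0.250) and 0.44 with *Gata6* deletion (SE 0.09, limma adjusted p = 0.132), and none of these passed. Complete separation of 6 deleted from 6 control hearts was found for 2 of the 10 genes, both higher in deleted hearts, and for 0.644% of all probesets (0.197% higher, 0.447% lower). For 3 *Gata4*-deleted hearts against 6 controls *Jun* and *Ier5* lay above all controls, as did 2.49% of probesets (3.3% lay below and 5.79% on either side), and for 3 *Gata6*-deleted hearts *Jun*, *Atf3*, *Ier3* and *Ier5* did, as did 1.61% (1.88% lay below and 3.48% on either side). Among probesets with a mean signal of 6 or more *Jun* passed for either deletion (adjusted p = 0.0303) and for *Gata6* deletion (adjusted p = 0.0374).

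The *Jun* upstream stretch (chr4:95052223-95052472, minus strand, GRCm38.p6, from RefSeq) is shown for the GATA motif nearest to a start site among these genes and for a heat shock element (GAANNTTC or TTCNNGAA, both strands, in 15.1% of windows), both in capitals.
Jun: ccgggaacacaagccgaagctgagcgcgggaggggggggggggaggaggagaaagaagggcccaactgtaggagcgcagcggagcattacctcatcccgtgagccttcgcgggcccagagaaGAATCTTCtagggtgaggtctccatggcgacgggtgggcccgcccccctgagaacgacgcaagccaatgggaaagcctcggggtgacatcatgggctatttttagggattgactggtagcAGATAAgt
The GATA motif lay 8 bases and the heat shock element 128 bases before the start. No other of the 8 genes held that heat shock element.

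**Figure D2:**
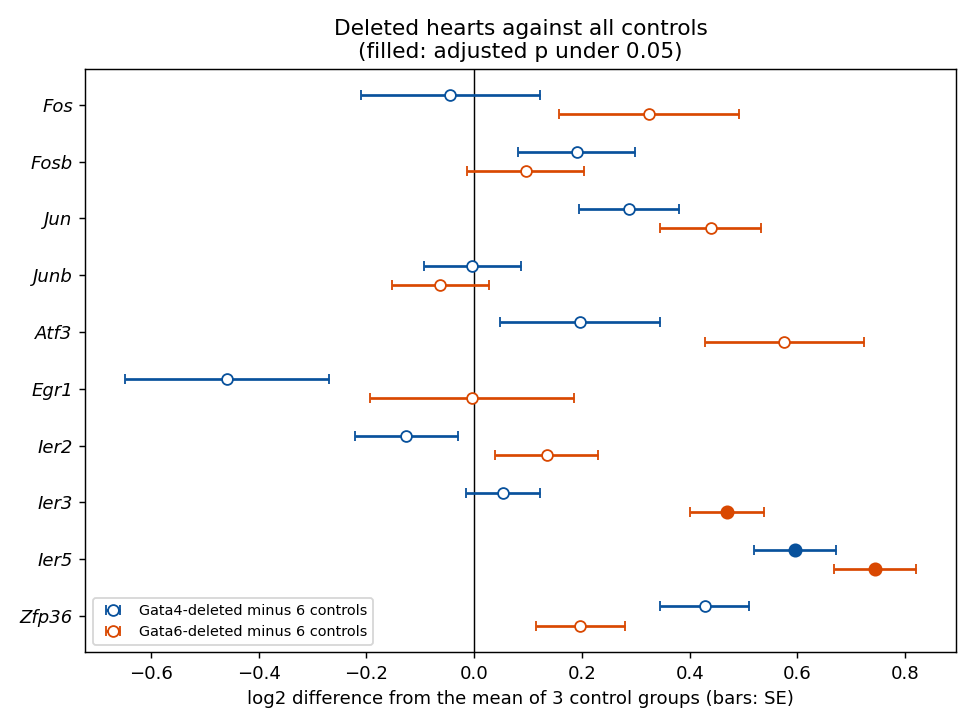
Difference in log2 signal from the mean of the 3 control groups (horizontal axis) for each gene (vertical axis), with *Gata4*-deleted hearts in blue and *Gata6*-deleted hearts in orange, bars for the SE and filled points for an adjusted p under 0.05. The filled points are *Ier5* for both deletions (0.60 and 0.74) and *Ier3* for *Gata6* deletion (0.47), and *Egr1* is the lowest point, at -0.46 for *Gata4* deletion.

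*Ier3*, which encodes a small regulator of survival and of ERK and NF-κB signalling, was higher in *Gata6*-deleted hearts. Their signals were 6.63, 6.84 and 6.74, above every other heart of the series. *Gata4*-deleted hearts read 6.35, 6.39 and 6.23, within the range of the controls, which was 6.44 and 6.44 in cre, 5.86 and 5.87 in *Gata4* floxed and 6.42 and 6.58 in *Gata6* floxed hearts. The *Gata4* floxed pair was thus the lowest of all 12 hearts. *Ier3* was 1.38-fold higher with *Gata6* deletion against all controls (log2 difference 0.47, SE 0.07, n = 3 against 6, limma adjusted p = 0.0201), and 0.05 higher with *Gata4* deletion (SE 0.07, n = 3 against 6, limma adjusted p = 0.815). The deleted groups differed directly by -0.41, with *Gata4*-deleted hearts lower (SE 0.08, n = 3 each, limma adjusted p = 0.0454), where 1.08% of all probesets passed (0.394% higher, 0.686% lower). The floxed lines differed by -0.64, with *Gata4* floxed hearts lower (SE 0.10, n = 2 each, limma adjusted p = 0.0427), where 0.228% passed (0.101% higher, 0.127% lower). *Ier3* was the only 1 of the 10 genes to pass in either of these comparisons.

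The *Gata6* call of *Ier3* was lost without the *Gata4* floxed hearts and in other fits. Without that pair the difference from the controls was 0.27 (limma adjusted p = 0.471), against the *Gata6* floxed hearts alone it was 0.24 (SE 0.09, n = 3 against 2, limma adjusted p = 0.991) and against the cre hearts alone 0.30 (SE 0.09, n = 3 against 2, limma adjusted p = 0.252). The call was also lost without 7 of the 12 hearts taken singly: cre heart 1 (adjusted p = 0.0622) or 2 (0.0557), *Gata4* floxed heart 1 (0.0644) or 2 (0.0614), *Gata6* floxed heart 1 (0.0534) and *Gata6*-deleted heart 2 (0.107) or 3 (0.116). The direct difference between deleted groups was lost without any heart except each *Gata6* floxed heart (adjusted p up to 0.177), and that between floxed lines without any except *Gata6* floxed heart 1 (adjusted p up to 0.222). *Ier3* held none of the motifs searched in its window. Its upstream stretch is shown for contrast with those above (chr17:35821463-35821712, plus strand, GRCm38.p6, from RefSeq), and so has no capitals.
Ier3: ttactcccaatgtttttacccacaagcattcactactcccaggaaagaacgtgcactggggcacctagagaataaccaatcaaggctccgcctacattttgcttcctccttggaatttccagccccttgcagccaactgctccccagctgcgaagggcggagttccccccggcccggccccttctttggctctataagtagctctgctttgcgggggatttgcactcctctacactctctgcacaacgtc

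*Zfp36* read higher in every heart with the cre transgene than in any without it, although no test of it between 2 sets of groups passed. It encodes tristetraprolin, a zinc finger protein that binds AU-rich elements of short-lived mRNAs and speeds their decay. Its signal was 7.38 and 7.02 in cre hearts, 7.24, 7.33 and 7.20 in *Gata4*-deleted hearts, and 7.0014, 7.0004 and 7.0746 in *Gata6*-deleted hearts. It was 6.59 and 6.69 in *Gata4* floxed and 6.71 and 6.58 in *Gata6* floxed hearts. All 8 hearts with the transgene lay above all 4 without it, a separation that 0.45% of all probesets showed, 0.262% in this direction and 0.188% in the other. Cre hearts read 0.56 above the floxed hearts (SE 0.10, n = 2 against 4, limma adjusted p = 0.116). The mean of the 3 groups with cre exceeded that of the floxed groups by 0.52 (SE 0.07, n = 8 against 4, limma adjusted p = 0.0643), a comparison that was added after the values of *Zfp36* were seen. *Gata4*-deleted hearts exceeded all controls by 0.43 (SE 0.08, n = 3 against 6, limma adjusted p = 0.0540) and the *Gata4* floxed hearts by 0.62 (SE 0.11, n = 3 against 2, limma adjusted p = 0.0643), but the cre hearts by only 0.05 (SE 0.11, n = 3 against 2, limma adjusted p = 0.909). *Gata6*-deleted hearts exceeded the *Gata6* floxed hearts by 0.38 (SE 0.11, limma adjusted p = 0.794) and read 0.18 below the cre hearts (log2 difference -0.18, SE 0.11, limma adjusted p = 0.615).

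None of these comparisons of *Zfp36* passed, and several lay close to the threshold. Against all controls *Gata4* deletion passed after quantile normalization (adjusted p = 0.0497), without cre heart 1 (adjusted p = 0.0260) and without both cre hearts (difference 0.62, adjusted p = 0.00967). The comparison of hearts with and without the transgene passed among probesets with a mean signal of 6 or more (adjusted p = 0.0141), as did that of cre with floxed hearts (adjusted p = 0.0328). None of the 10 genes passed between cre and floxed hearts in limma (2 at an unadjusted p under 0.05, *Ier3* and *Zfp36*, as were 8.33% of all probesets), where 0.0956% of all probesets passed (0.0591% higher, 0.0366% lower). None passed between hearts with and without the transgene (4 at an unadjusted p under 0.05, *Jun*, *Ier3*, *Ier5* and *Zfp36*, as were 7.65% of all probesets), where 0.0337% of all probesets passed (0.0253% higher, 0.00844% lower). The *Gata4*-deleted and *Gata6*-deleted hearts carried floxed alleles as well as the transgene. They read 7.20 to 7.33 and 7.0004 to 7.0746, above the floxed hearts without the transgene at 6.58 to 6.71. A low signal was thus not shared by all hearts with floxed alleles. In the deleted hearts the transgene came together with deletion, and no heart lacked both the transgene and floxed alleles. Whether the transgene or the floxed lines set the *Zfp36* signal was not tested.

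The *Zfp36* upstream stretch (chr7:28379229-28379478, minus strand, GRCm38.p6, from RefSeq) is shown because it alone among the 8 windows held a CArG box, the element bound by SRF, which stood in 1.63% of all windows. Bases farther than 250 upstream were not searched, and *Egr1* and *Ier2* had no window. Such a box elsewhere in any of these genes would thus be missed. Capitals mark a GATA motif 149 bases and the CArG box 58 bases before the start.
Zfp36: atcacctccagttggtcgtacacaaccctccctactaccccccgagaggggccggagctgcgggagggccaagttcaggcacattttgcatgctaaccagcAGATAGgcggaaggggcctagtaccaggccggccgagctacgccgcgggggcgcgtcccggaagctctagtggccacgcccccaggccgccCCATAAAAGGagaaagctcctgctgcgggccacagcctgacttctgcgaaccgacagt
The CArG box is the kind of element through which immediate early genes are known to respond to serum.

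*Atf3*, *Fos* and *Egr1* varied most from heart to heart within a genotype. *Atf3*, a basic leucine zipper factor induced by many stresses, read 7.09, 6.39 and 6.72 in *Gata6*-deleted hearts, against 6.43, 6.27 and 6.37 in *Gata4*-deleted hearts. Controls were 6.21 and 6.10 (cre), 6.33 and 6.18 (*Gata4* floxed) and 6.29 and 5.84 (*Gata6* floxed). All 3 *Gata6*-deleted hearts lay above all controls, but the lowest exceeded the highest control by less than the distance between the *Gata6* floxed pair. The difference from all controls was 0.58 with *Gata6* deletion (SE 0.15, n = 3 against 6, limma adjusted p = 0.222), 0.20 with *Gata4* deletion (SE 0.15, n = 3 against 6, limma adjusted p = 0.656) and 0.39 with either (SE 0.12, n = 6 against 6, limma adjusted p = 0.305). Without *Gata6*-deleted heart 1 the difference for *Gata6* deletion was 0.40 (limma adjusted p = 0.458).

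*Fos*, the partner of JUN in AP-1, read 6.62 in *Gata6*-deleted heart 1 and no more than 6.07 in any other heart. The remaining *Gata6*-deleted hearts were at 5.94 and 5.92, the *Gata4*-deleted hearts at 5.78, 5.62 and 5.97, and the controls at 6.01 and 5.81 (cre), 5.67 and 6.07 (*Gata4* floxed) and 5.79 and 5.66 (*Gata6* floxed). With that 1 heart the difference of *Gata6*-deleted hearts from all controls was 0.32 (SE 0.17, n = 3 against 6, limma adjusted p = 0.655), and without it 0.09 (limma adjusted p = 0.917). With *Gata4* deletion it was -0.04 (SE 0.17, n = 3 against 6, limma adjusted p = 0.948).

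Upstream stretches of *Fos* (chr12:85473640-85473889, plus strand) and *Atf3* (chr1:191183334-191183583, minus strand, both GRCm38.p6, from RefSeq) are shown for the core of the cAMP response element, TGACGT, found in 7.51% of windows on either strand and in these 2 genes only among the 8.
Fos: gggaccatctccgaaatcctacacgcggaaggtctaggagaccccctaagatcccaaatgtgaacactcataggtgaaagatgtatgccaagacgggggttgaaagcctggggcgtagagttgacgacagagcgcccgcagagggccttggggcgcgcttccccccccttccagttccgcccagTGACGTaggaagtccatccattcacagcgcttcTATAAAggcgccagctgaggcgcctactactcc
Atf3: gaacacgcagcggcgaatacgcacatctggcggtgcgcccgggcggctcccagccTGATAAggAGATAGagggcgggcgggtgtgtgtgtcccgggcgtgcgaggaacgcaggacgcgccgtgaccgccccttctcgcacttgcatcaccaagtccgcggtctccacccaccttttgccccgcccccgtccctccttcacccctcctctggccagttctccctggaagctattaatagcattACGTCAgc
Capitals in *Fos* mark TGACGT 66 bases and TATAAA (in 13.6% of windows) 33 bases before the start. In *Atf3* they mark neighbouring GATA motifs 195 and 187 bases and the reverse of TGACGT 8 bases before the start. The full palindrome TGACGTCA, which contains the core and stood in 1.79% of windows, and the AP-1 site TGAGTCA, in 5.2%, were in none of the 8 windows.

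*Egr1*, a zinc finger factor induced by stretch and growth factors, had the largest spread within groups of the 10 genes, and its differences from the floxed lines had opposite signs, neither of which passed. It read 5.70, 5.62 and 5.88 in *Gata4*-deleted hearts, below the *Gata4* floxed hearts at 6.49 and 6.67 and the cre hearts at 6.27 and 6.35. It read 6.69, 6.08 and 5.79 in *Gata6*-deleted hearts, and 5.98 and 5.40 in *Gata6* floxed hearts, which overlapped. *Gata4*-deleted hearts were 0.84 below their floxed line (log2 difference -0.84, SE 0.24, n = 3 against 2, limma adjusted p = 0.276), and *Gata6*-deleted hearts 0.50 above theirs (SE 0.24, n = 3 against 2, limma adjusted p = 0.999). The second value ran from 0.21 to 0.79 when 1 heart was left out, and was 0.25 without *Gata6*-deleted heart 1. The difference between both changes was -1.34 (SE 0.35, limma adjusted p = 0.563). No gene of the 10 reached the limma threshold there (1 at an unadjusted p under 0.05, *Egr1*, as were 6.25% of all probesets), where 0.0169% of all probesets passed. The floxed lines themselves differed by 0.88 (SE 0.27, n = 2 each, limma adjusted p = 0.284), which is as large as the change with *Gata4* deletion. Against all controls *Egr1* was at -0.46 with *Gata4* deletion (SE 0.19, n = 3 against 6, limma adjusted p = 0.366), or -0.27 without the *Gata4* floxed hearts (limma adjusted p = 0.664), and -0.00 with *Gata6* deletion (SE 0.19, n = 3 against 6, limma adjusted p = 0.999).

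*Fosb*, *Junb* and *Ier2* passed in no comparison and had no wide spread within groups. *Fosb*, a FOS relative, ranged from 5.29 to 5.91 over the 12 hearts, with a difference of 0.14 for either deletion against all controls (SE 0.09, n = 6 against 6, limma adjusted p = 0.667). *Junb*, a JUN relative that often opposes it, ranged from 5.85 to 6.26, with a difference of -0.03 (SE 0.07, n = 6 against 6, limma adjusted p = 0.930). *Ier2*, a nuclear protein of the early response, ranged from 5.77 to 6.36, with a difference of 0.00 (SE 0.08, n = 6 against 6, limma adjusted p = 0.993). The dim level of *Fosb* limits what could be seen of it.

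Variation between groups and between hearts was set side by side for each gene by the SD within groups (7 residual degrees of freedom), whose median over all probesets was 0.136, and by the share of variance between the 5 groups, whose median was 42.2%. *Ier5* (SD 0.1004, 95.8% between groups), *Ier3* (0.0852, 94.9%) and *Zfp36* (0.114, 89.8%) lay below the median SD, with most of their variance between groups. *Jun* was near the median SD (0.134, 80.3%). Of probesets with a similar mean signal, 16.8% had a smaller SD than *Ier3*, 42.5% than *Ier5*, 54.8% than *Zfp36* and 76.1% than *Jun*. *Egr1* (0.303, 66.8%), *Fos* (0.264, 38.2%) and *Atf3* (0.233, 64.9%) had a larger SD within groups than 86.6%, 83.6% and 80.1% of all probesets. *Fosb* (0.163, 32.8%), *Ier2* (0.139, 45.8%) and *Junb* (0.127, 43.8%) were near the median on both counts. A moderated F test over the 5 groups passed for 3 of the 10 genes, *Ier5* (limma adjusted p = 0.00708), *Ier3* (0.0150) and *Zfp36* (0.0400), and for 1.27% of all probesets. Without *Gata4* floxed heart 1 or 2 only *Ier5* passed it. *Zfp36* passed it with all hearts or without either cre heart, and was lost without any 1 of the other 10 hearts, whereas *Ier5* passed in all 12 of these fits.

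**Figure D3:**
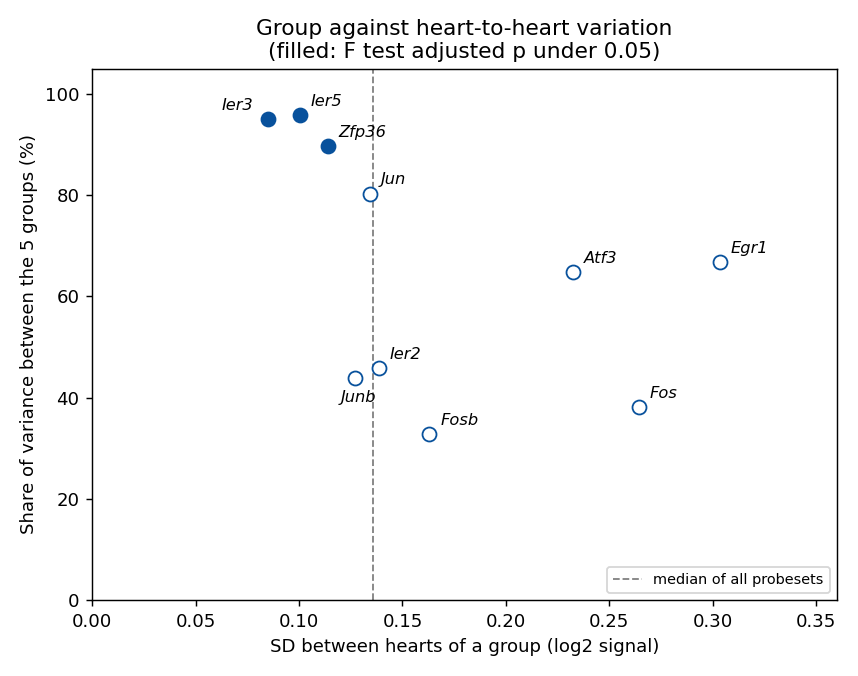
SD between hearts of a group in log2 signal (horizontal axis) against the share of variance between the 5 groups in percent (vertical axis), with a point per gene, filled where the F test passed at an adjusted p under 0.05, and a dashed line at the median SD of all probesets (0.136). *Ier3*, *Ier5* and *Zfp36* sit at the upper left, and *Egr1*, *Fos* and *Atf3* lie to the right of the line at SDs of 0.233 to 0.303.

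*Gata6*-deleted heart 1 carried much of the heart-to-heart variation. Of the 10 genes, 9 were above their mean over the 12 hearts in it and 6 were at their highest, *Fos*, *Jun*, *Egr1*, *Atf3*, *Ier2* and *Ier5*. The mean deviation of the 10 genes was 0.37 there and between -0.20 and 0.11 in the other hearts. *Zfp36* (0.02) and *Junb* (-0.01) stayed near their mean in that heart. Without it the SD within groups was 0.169 for *Fos*, 0.210 for *Egr1*, 0.177 for *Atf3* and 0.0882 for *Jun*, while that of *Ier5* was 0.107. At the other end, *Gata6* floxed heart 2 was below the mean in 8 of the 10 genes and lowest in 3, with a mean deviation of -0.20.

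**Figure D4:**
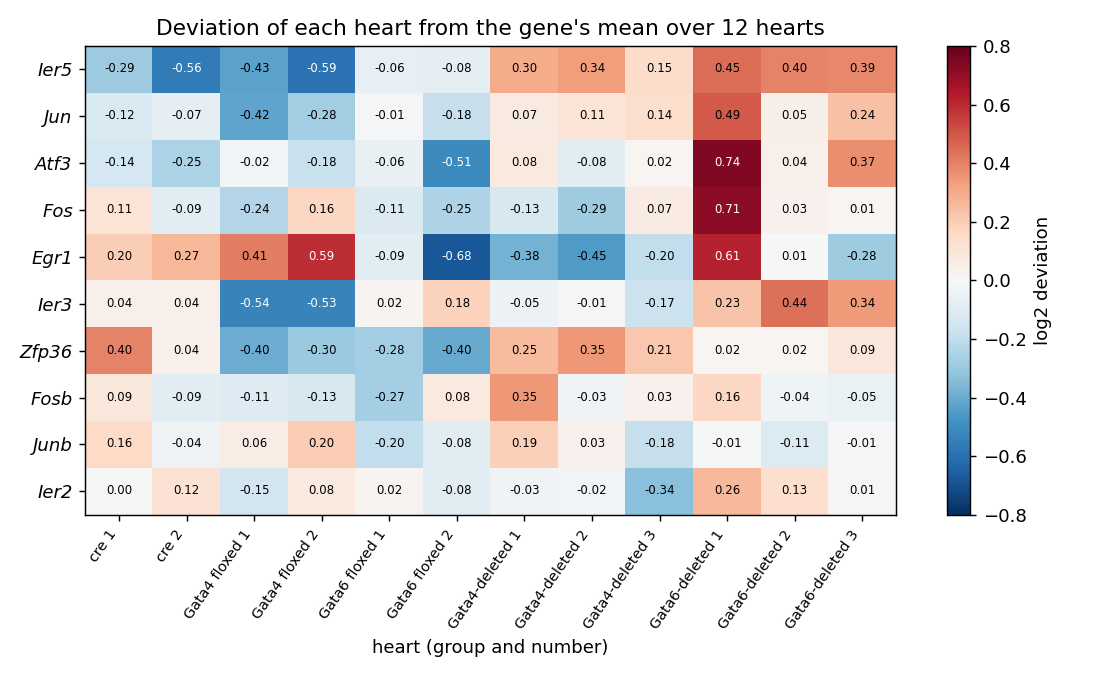
Deviation of each heart (columns, by group and heart number) from the gene's mean over the 12 hearts (rows, one per gene), in log2 signal, with red above and blue below the mean. *Gata6*-deleted heart 1 is above the mean in 9 genes, by 0.74 in *Atf3* and 0.71 in *Fos*, whereas *Ier5* is red in all 6 deleted hearts and blue in all 6 controls.

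Other immediate early genes were read from lists that hold none of the 10. Of 22 other transcription factors of this class, none passed against all controls for either deletion, *Gata4* deletion or *Gata6* deletion, although 19 had positive differences for either deletion, with a median of 0.13 beside -0.00 over all probesets. In the same list 16 were positive with a median of 0.12 for cre against floxed hearts, and 12 were positive with a median of 0.02 for *Gata6*-deleted against cre hearts. The nuclear receptor *Nr4a1* read 8.98, 7.81 and 8.67 in *Gata6*-deleted hearts, 7.90, 7.34 and 8.87 in *Gata4*-deleted hearts and 6.76 to 7.61 in controls, with a difference of 0.997 for either deletion (limma adjusted p = 0.255). It was named after its values were seen. Of 33 other genes of the class that encode no transcription factor, only *Ccn2*, a matricellular growth factor, passed, at 0.55 for either deletion (limma adjusted p = 0.0379) and 0.88 for *Gata4* deletion (limma adjusted p = 0.00742). Without the *Gata4* floxed hearts *Ccn2* was at 0.51 for either deletion (limma adjusted p = 0.142) and 0.85 for *Gata4* deletion (limma adjusted p = 0.0189). Their median was 0.05 for either deletion. Of these 55 genes together 10 were highest in *Gata6*-deleted heart 1, where 6.45% of all probesets were highest, 10 in *Gata4*-deleted heart 3 (8.05%), and 12 were lowest in *Gata6* floxed heart 2 (10.5%). *Gata4* floxed heart 1, a control, held 9 of the 55 at their highest (8.62%) and 10 at their lowest (9.13%). *Gata6*-deleted heart 1 also held 5 at their lowest (6.91%). For the 10 genes described above the median was 0.20 for either deletion, 0.12 for *Gata4* deletion and 0.26 for *Gata6* deletion.

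Genes upstream and downstream of the class gave few calls. Of 19 kinases and factors that induce immediate early genes, such as *Srf*, *Elk1* and *Creb1*, none passed for either deletion, and the median was -0.01. Of 12 heat shock genes and factors, read because IER5 acts on HSF1 in human cells, *Hspb1*, a small heat shock protein, passed against all controls with *Gata6* deletion only (0.47, limma adjusted p = 0.0203), and 11 of 12 had positive differences in that comparison with a median of 0.25. Without the *Gata4* floxed hearts *Hspb1* was at 0.43 (limma adjusted p = 0.104). The median of the list was 0.04 for *Gata6*-deleted against *Gata6* floxed hearts, whose list mean was 9.51 to 9.60 beside 9.32 to 9.43 in the other controls, and 0.07 for *Gata4* deletion against all controls. Of 16 genes of the integrated stress response, in which *Atf3* is induced by ATF4, none passed and the median for either deletion was -0.03. Of 12 AU-rich mRNAs known as targets of tristetraprolin, *Ier3* itself was the only 1 to pass, with *Gata6* deletion, and none of the other 11 had a mean signal above 5.68, with a list mean of 4.62 to 4.79 in every heart.

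Markers of other cells and of the hour of harvest moved with some of these comparisons, and their part in the results was not tested. Of 12 macrophage markers none passed, but none had a positive difference for either deletion (median -0.20), and their mean signal was 6.96 to 7.03 in *Gata4*-deleted hearts, 7.32 to 7.35 in *Gata6*-deleted hearts and 7.22 to 7.47 in the controls. Between the deleted groups, where *Ier3* differed, 11 of the 12 were lower in *Gata4*-deleted hearts (median -0.31) and *Adgre1*, which encodes the macrophage marker F4/80, passed (-0.76, limma adjusted p = 0.0404). Of 8 smooth muscle and pericyte markers *Acta2*, smooth muscle actin, passed for either deletion (0.90, limma adjusted p = 0.0416) and for *Gata4* deletion (1.04, limma adjusted p = 0.0284), but not without the *Gata4* floxed hearts (0.75 and 0.89, limma adjusted p = 0.197 and 0.105), and their mean was 8.23 to 8.64 in deleted and 8.13 to 8.33 in control hearts. No marker of cardiomyocytes, endothelial cells, fibroblasts, neutrophils, red blood cells, atria or skeletal muscle passed against all controls. Of 15 clock genes *Per2* (0.58, limma adjusted p = 0.0285), *Per1* (0.46, limma adjusted p = 0.0427) and *Arntl* (-0.58, limma adjusted p = 0.0380) passed for either deletion, and *Nr1d1*, a clock repressor, for *Gata4* deletion (-0.63, limma adjusted p = 0.0159). All of these calls were lost without the *Gata4* floxed hearts: *Per2* was then at 0.27, *Per1* at 0.04 and *Arntl* at -0.22 (limma adjusted p = 0.329, 0.923 and 0.556), and *Nr1d1* at -0.47 (limma adjusted p = 0.0964). With *Gata4* deletion alone *Per2* was at 0.81 with all hearts and 0.51 without that pair (limma adjusted p = 0.00915 and 0.0626). *Per1* was likewise at 0.61 and 0.19 (limma adjusted p = 0.0176 and 0.479), and *Arntl* at -0.66 and -0.30 (limma adjusted p = 0.0265 and 0.351). *Per1* in the deleted hearts (7.88 to 8.25) lay within the range of the cre and *Gata6* floxed hearts (7.74 to 8.35). Of 16 glucocorticoid response genes *Tsc22d3* (0.37, limma adjusted p = 0.0240) and *Per1* passed for either deletion, and without the *Gata4* floxed hearts *Tsc22d3* was at 0.14 (limma adjusted p = 0.476). For *Gata4* deletion *Tsc22d3* was at 0.58 with all hearts and 0.35 without that pair (limma adjusted p = 0.00435 and 0.0620). The mean of these 16 genes was 7.85 to 7.93 in *Gata4* floxed hearts and 8.18 to 8.66 in the other hearts.

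The genes most like *Ier5* over the 12 hearts, by Pearson r among 10111 named genes with a mean signal of 6 or more, were *Cpe* (r = 0.91), *Tspan3* (0.90), *Atf4* (0.89), *Atp8a2* (0.88) and *Bak1* (0.87). This likeness followed the groups, since the same pairs had r of 0.05 to 0.36 after group means were subtracted. Because they were picked for likeness to *Ier5* over the same hearts, calls of these genes for deletion are no separate support. *Cpe* (0.24, limma adjusted p = 0.0458), *Atp8a2* (0.50, limma adjusted p = 0.0285) and *Bak1* (0.30, limma adjusted p = 0.0416) passed for either deletion, whereas *Tspan3* and *Atf4* did not. Without the *Gata4* floxed hearts those 3 were at 0.21, 0.47 and 0.31 (limma adjusted p = 0.18, 0.101 and 0.122). The genes most like *Fos* were *Txn1* (0.86), *Fndc1* (0.86), *Asb3* (0.84), *Synj1* (0.83) and *Cavin1* (0.82), and here r was 0.81 to 0.89 after group means were subtracted, so that the likeness lay within groups. *Fos* deviated from its group mean by 0.46 in *Gata6*-deleted heart 1 and by -0.24 to 0.20 in the other hearts. How far that 1 heart carried these r was not tested. No member of the 10 was among either set of 5. These are descriptions over the same 12 arrays, with the groups of 2 or 3 hearts as shared structure.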

How the data were processed

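RNA of 12 hearts was measured on Affymetrix mouse gene arrays, 1 array per heart, and hearts of a group are labelled as biological replicates. The authors deposited log2 values made by RMA (which corrects background, normalizes and summarises probes). Its version is not given in the sources used here. Symbols came from the platform's probe table (21789 probesets with 1 symbol, 1621 with several, 12147 not listed), and all 35557 probesets entered the tests. A second deposited table of ratios, whose 12 columns no label pairs with a heart, was not used. A group-means model was fitted to the 12 arrays with limma 3.58.1 in R 4.3.3 (7 residual and 2.50 prior degrees of freedom, prior SD 0.124), without a replicate block, with two-sided tests and Benjamini-Hochberg adjustment over all probesets at 0.05, and was tested on simulated data. The number of arrays limits the precision.

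The 10 genes, the gene lists and the rules for naming genes (genes of a list that passed against all controls, at most 3 per direction, and the 5 genes most like *Ier5* and *Fos*) were chosen with earlier results of these data known. *Nr4a1* and the comparison of hearts with and without cre were added after values were seen. Alternatives were quantile normalization, median centring, a filter at a mean log2 signal of 6, the replicate number as a block, a trend and robust prior, means per gene, only the groups compared, the methods' test, a threshold of 0.10 and each heart left out, and, after seeing the data, each control group left out (for the other lists, the *Gata4* floxed hearts). Start sites and sequences came from RefSeq (GRCm38.p6), where 8 of the 10 genes had a window. *Egr1* and *Ier2* are named without one.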

Additional observations from a re-analysis of the deposited data

Results flagged for a closer look

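The log2 signal of *Ier3* differed by -0.41 between the groups with *Gata4* and *Gata6* deletion (SE 0.08, n = 3 each, limma adjusted p = 0.0454), and it was flagged because the direct test of the difference passed. All 3 *Gata4*-deleted hearts (6.23 to 6.39) lay below all 3 *Gata6*-deleted hearts (6.63 to 6.84). The floxed lines differed in the same direction, by -0.64, and the difference between both changes from the own floxed line was 0.22 (SE 0.13, limma adjusted p = 0.863). Between the same groups 11 of 12 macrophage markers were lower in *Gata4*-deleted hearts and *Adgre1* passed (-0.76, limma adjusted p = 0.0404). The part of these markers in the *Ier3* difference was not tested.

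*Egr1* was flagged because every *Gata4*-deleted heart lay below the mean of its floxed line and every *Gata6*-deleted heart above the mean of its own. The difference between both changes was -1.34 (SE 0.35) and did not pass the test (limma adjusted p = 0.563). Without *Gata6*-deleted heart 1 it was -1.09 (limma adjusted p = 0.497). The value of the *Gata6* change alone ran from 0.21 to 0.79 when 1 heart was left out.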

How the results depend on the processing

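The totals here cover the alternatives other than leaving out 1 heart. Of those recomputed results 423 kept their direction and call or, for a count of genes, stayed within 1.5 times it. Another 53 lost a call or fell further, 56 gained a call or rose further, and none reversed. Fits without 1 heart are not in these totals. By the same rule, their counts within 1.5 times include 3 among the 5 groups falling to 2 in 8 of the 12 fits. Each list below counts the genes of the 10 called, in place of the number reported. With a filter at a mean signal of 6, which drops *Fos* and *Fosb*, 4 passed for either deletion (1 reported, with 2.62% of the probesets kept), 2 for *Gata4* deletion (1, with 4.5%), 3 for *Gata6* deletion (2, with 1.64%), 3 for *Gata4*-deleted against *Gata4* floxed (1, with 1.91%), 1 for cre against floxed (0, with 0.43%) and 2 for hearts with against without cre (0, with 0.289%). Quantile normalization gave 2 for *Gata4* deletion (1, with 0.875% of all probesets). Quantile normalization and median centring gave 0 in place of 1 between the deleted groups (with 1.12% and 0.937%) and between the floxed lines (with 0.231% and 0.2%). A trend and robust prior gave 2 for *Gata4* deletion and against *Gata4* floxed (1 each, with 1.22% and 0.453%). It gave 1 for hearts with against without cre (0, with 0.0675%). A threshold of 0.10 gave the same counts, with 1.56%, 0.478% and 0.0675%. Fits of only the groups compared, which have fewer hearts, gave 1 for *Gata6* deletion (2, with 0.0703%). They gave 0 in place of 1 for *Gata4*-deleted against *Gata4* floxed and cre (with 0.0253% and 0.0478%) and *Gata6*-deleted against cre (with 0.0225%). The same held for the deleted groups (with 0.276%) and the floxed lines (with 0.0366%). Such fits were not run for either deletion, hearts with cre or all groups, which use all hearts. The methods' test gave 0 after adjustment in every pairwise comparison, and unadjusted, with the share of all probesets, 3 for either deletion (7.85%), 2 for *Gata4* (9.4%) and 4 for *Gata6* deletion (6.63%), 5 and 3 for *Gata4*-deleted against *Gata4* floxed and cre (8.07% and 8.72%), 2 and 2 for *Gata6*-deleted against *Gata6* floxed and cre (4.62% and 9.13%), 2 between deleted groups (10.6%), 1 for cre against floxed (6.22%), 2 between floxed lines (6.45%) and 2 for hearts with against without cre (5.14%). It was not run for the difference between changes.

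Without all cre hearts 2 passed for either deletion, 2 for *Gata4* and 1 for *Gata6* deletion, with 0.0619%, 0.464% and 0.0506% of all probesets. Without all *Gata6* floxed hearts 2 passed for either deletion (with 0.402%), and without all *Gata4* floxed hearts 1 for *Gata6* deletion (with 0.208%). Leaving out 1 heart gave 1 to 1 for either deletion, 0 to 2 for *Gata4*, 1 to 2 for *Gata6* deletion, 0 to 2 and 0 to 1 for *Gata4*-deleted against *Gata4* floxed and cre, 0 to 1 between deleted groups and between floxed lines, and 1 to 3 among the 5 groups. Over all probesets calls for either deletion ranged from 6 to 139 in these fits (125 with all hearts).

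Replicate numbers did not pair hearts (correlations of -0.0928 to 0.0437 over 10 pairs of groups). With the replicate block, *Ier5* was 0.70 for either deletion (limma adjusted p = 0.0799), where no probeset of the array passed. Calls among the 10 genes were thus 0 for either deletion, and 1 for *Gata6* deletion (with 0.236% of all probesets). They were 0 for *Gata4*-deleted against *Gata4* floxed and cre (with 0.0394% and 0.0478%), between deleted groups (with 0.658%) and between floxed lines (with 0.0984%). Signals near the array median limit what could be seen of *Fos* and *Fosb*.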
